A study of Mus musculus with 18 samples.

Results

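The 7 genes described here encode 3 ephrins (Efna1, Efnb1, Efnb2) and 4 Eph receptors (Epha2, Ephb2, Ephb3, Ephb4), taken by symbol from the 23238 distinct gene symbols counted in each library. RNA was measured in 18 libraries of cells sorted by flow cytometry from the small intestine of adult C57BL/6J mice, and each library counted reads at the 3′ ends of transcripts (QuantSeq). Intestinal stromal cells (IntSCs) were PDGFRb+ cells sorted by the tdTomato reporter, with 6 libraries from control mice (WT, genotype PDGFRb+-CreERT2-Tomato+) and 5 from knockout mice (KO), whose genotype adds Lats1f/f and Lats2 f/f to the same PDGFRb+-CreERT2 and Tomato+ alleles. Lymphatic endothelial cells (LECs) made up 4 WT and 3 KO libraries. The study calls them LECs of the small intestine and also of its lacteals, the lymph capillaries of the villi. Its methods describe no step that selects lacteals over other lymphatic vessels of the tissue. All 4 groups carried the tamoxifen-inducible Cre driven by Pdgfrb and the reporter. Floxed Lats1 and Lats2 alleles were present in KO mice only, and the Cre acts in Pdgfrb-expressing stroma (fibroblasts, smooth muscle cells and pericytes), so that LECs were sorted beside recombined stroma and were not themselves its target. IntSCs were therefore a mixture of several stromal cell types.

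Eph receptors are receptor tyrosine kinases that bind ephrins on the surface of neighbouring cells. Signals run both into the cell with the receptor and back into the cell with the ephrin, and they guide cell repulsion, adhesion and the setting of tissue boundaries. A-class ephrins are held in the membrane by a lipid anchor, and B-class ephrins cross it. In vessels, ephrin-B2 and EphB4 are a known ligand and receptor pair that separates arteries from veins and shapes lymphatic valves, and in intestinal epithelium EphB2 and EphB3 are known for placing cells along the axis from crypt to villus. LATS1 and LATS2 are kinases that restrain YAP and TAZ, coactivators that act on genes through TEAD factors.

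The genes lie on mouse assembly GRCm38.p6 (mm10), per RefSeq, at chr3:89271730-89280951 on the minus strand (Efna1), chrX:99136061-99149022 on the plus strand (Efnb1), chr8:8617235-8661242 on the minus strand (Efnb2), chr4:141301221-141329384 on the plus strand (Epha2), chr4:136647536-136836326 on the minus strand (Ephb2), chr16:21204620-21223309 on the plus strand (Ephb3) and chr5:137350109-137374522 on the plus strand (Ephb4). In the GENCODE annotation of the same assembly, Zan overlaps Ephb4 near its 3′ end on the opposite strand. Since the strand setting of the counting was not given in the sources used here, reads of such a pair cannot be told apart. Efnb2 overlaps 3 further GENCODE loci on its own strand.

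The 250 bases before a RefSeq start site were read for each gene and searched on both strands for 3 short words. The start site used can lie inside the gene span given above. Thus the windows of Ephb2 (chr4:136836013-136836262) and of the second Efna1 start site lay within the span, and that of Ephb3 (chr16:21204545-21204794) partly within it. The word of TEAD factors, through which YAP and TAZ act, was GGAATG. That of TCF/LEF factors, which carry Wnt signals to genes in intestinal epithelium, was CTTTGA. The word of ETS factors, a family with many roles in endothelium, was CCGGAA. The TEAD and ETS words have 4 letters in common and can overlap. The study itself gives a shorter TEAD-binding sequence, GGAAT, whose matches were not counted here. Over 32851 promoter windows of the same length, 12.6% held the TEAD word, 13.8% the TCF/LEF word and 12.0% the ETS word. Among the 7 genes, Efnb2 held 1 TEAD match, Epha2 held 2 TEAD matches and 1 TCF/LEF match, and Ephb2 held 1 ETS match. None of these words stood in the windows of Efna1 (2 start sites), Efnb1, Ephb3 and Ephb4. Printed here, 5′ to 3′ with matches in capitals, are the windows with TEAD letters (Efnb2 at chr8:8661243-8661492, minus strand; Epha2 at chr4:141300971-141301220, plus strand) and those of the genes with more RNA in LECs (Efna1, first start site, at chr3:89280952-89281201, minus strand; Ephb4 at chr5:137349859-137350108, plus strand).
Efnb2: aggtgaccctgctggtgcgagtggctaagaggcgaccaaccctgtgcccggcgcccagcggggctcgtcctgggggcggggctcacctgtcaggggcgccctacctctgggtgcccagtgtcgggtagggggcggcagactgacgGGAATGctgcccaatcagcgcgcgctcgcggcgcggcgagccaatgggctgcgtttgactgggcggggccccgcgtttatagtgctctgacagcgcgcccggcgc
Epha2: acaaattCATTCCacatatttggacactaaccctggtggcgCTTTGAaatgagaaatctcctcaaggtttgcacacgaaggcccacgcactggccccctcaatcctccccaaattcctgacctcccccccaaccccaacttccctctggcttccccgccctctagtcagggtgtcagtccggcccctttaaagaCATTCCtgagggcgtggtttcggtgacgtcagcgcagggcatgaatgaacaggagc
Efna1: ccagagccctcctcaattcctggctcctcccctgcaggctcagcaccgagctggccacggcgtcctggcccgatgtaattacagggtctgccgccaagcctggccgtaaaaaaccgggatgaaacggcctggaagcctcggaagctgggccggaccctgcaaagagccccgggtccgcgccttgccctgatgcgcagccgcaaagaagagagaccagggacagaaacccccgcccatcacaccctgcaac
Ephb4: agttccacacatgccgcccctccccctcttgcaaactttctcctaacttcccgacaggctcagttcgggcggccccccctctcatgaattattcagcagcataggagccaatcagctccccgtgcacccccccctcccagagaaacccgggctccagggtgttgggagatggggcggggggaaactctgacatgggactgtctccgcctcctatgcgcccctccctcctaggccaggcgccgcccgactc

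The libraries held 5361250 to 10549233 counted reads, so that the limit set by 0 reads (3 reads of the total) lay between 2.84e-05% and 5.6e-05% of a library. Such limits, and the counting intervals below, cover counting error only. Levels are given as CPM, the count of a gene scaled to the library's size, after TMM scaling over all 4 groups. Defining markers went with the sort: Prox1, a transcription factor of lymphatic endothelium, stood at 33.3 to 114 CPM in the LECs and at 0 to 0.172 CPM in the IntSCs, and 10 LEC markers summed to 9341 to 15550 CPM in LECs against 254 to 547 CPM in IntSCs. Lats1 and Lats2 did not pass the test of KO against WT in IntSCs (adjusted p = 0.987 and 0.252, edgeR's quasi-likelihood test), but a 3′ count can include a transcript that has lost internal exons, so it does not check the labels. Pdgfrb, on which the sort and the Cre rest, averaged 485 ± 164 CPM in WT and 879 ± 187 CPM in KO IntSCs (SD, n = 6 and 5; adjusted p = 0.0613). The labels do not say that libraries came from separate mice. The study's legends give 5 to 6 mice per group for sorted IntSCs and 3 to 4 for sorted LECs. These numbers match the libraries per group, but the legends do not assign a mouse to each library. P-values measure the spread between these libraries. In such bulk samples, fewer cells of a type and less RNA per cell cannot be told apart.

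The first comparison asked how RNA of the receptors and ligands is divided between the sorted LECs and the sorted IntSCs. In WT cells, Efna1 and Ephb4 were higher in LECs and Ephb2 and Ephb3 were higher in IntSCs, while Efnb1, Efnb2 and Epha2 did not pass the test. The same 4 genes passed in the same direction in KO cells. In WT, 4 of the 7 genes passed at an adjusted p under 0.05 (2 higher in LECs, 2 lower), where the share over all 12203 genes tested was 22.6% (10.3% higher, 12.3% lower). In KO, 4 of 7 passed again (2 higher, 2 lower), against 25.9% of 12758 genes (9.11% higher, 16.8% lower).

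**Figure D1:**
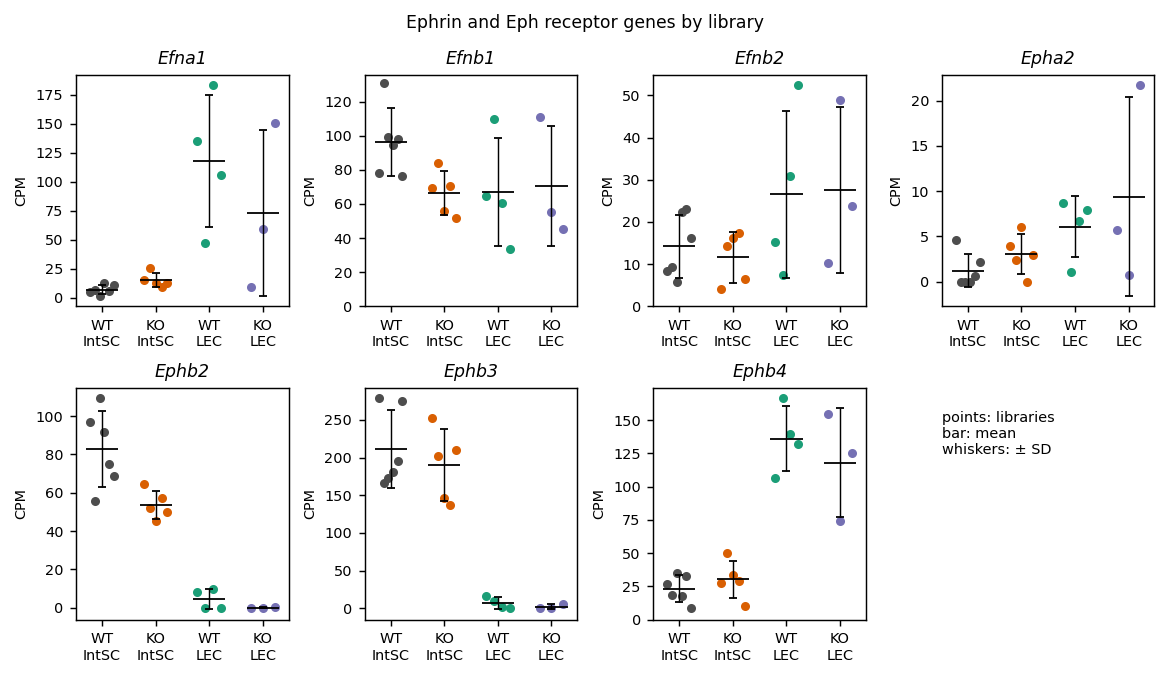
Level of each of the 7 genes in CPM (vertical axis, linear, a scale of its own per gene) in the 4 groups (horizontal axis), with 1 point per library, a bar at the mean and whiskers of ± 1 SD. Every LEC library lies below every IntSC library for Ephb2 and Ephb3 and above every IntSC library for Ephb4, while the 3 KO LEC libraries of Efna1 spread from 9.64 to 150 CPM.

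Efna1 encodes ephrin-A1, a lipid-anchored ligand found on many endothelia. Its level in WT IntSCs ran from 1.76 to 13.0 CPM with a median of 6.23. KO IntSCs held 15.4, 26.0, 12.5, 9.70 and 12.8 CPM in replicates 1 to 5. The WT LEC libraries held 135, 47.7, 183 and 106 CPM and the KO LEC libraries 9.64, 59.7 and 150 CPM. All WT LEC libraries thus lay above all IntSC libraries, whereas KO LEC replicate 1 lay below every KO IntSC library. The order of the group means was WT IntSC, KO IntSC, KO LEC and WT LEC (7.18 ± 4.18, 15.3 ± 6.35, 73.3 ± 71.3 and 118 ± 56.7 CPM; SD, n = 6, 5, 3 and 4). LECs exceeded IntSCs by 4.05 ± 0.52 on the log2 scale in WT (fitted log2 fold change ± SE, adjusted p = 3.19e-05), and all 16 alternatives kept that call. In KO the difference was 2.26 ± 0.70 (adjusted p = 0.0386).

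The KO call for Efna1 rested on single libraries. Without KO LEC replicate 3 the difference was 1.19 (adjusted p = 0.257), and without KO LEC replicate 2 it was 2.38 (adjusted p = 0.0514). Leaving out KO IntSC replicate 1, 3, 4 or 5 gave an adjusted p of 0.0751, 0.0811, 0.0825 or 0.0805. Neighbouring groups of the same cell type did not differ by the test, with an adjusted p of 0.6 in IntSCs and of 1 in LECs.

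Efnb1 encodes ephrin-B1, a transmembrane ligand known from boundary formation. WT IntSCs held 76.6 to 131 CPM with a median of 96.3. In KO IntSCs the 5 libraries held 69.5, 83.8, 55.9, 70.6 and 51.7 CPM. LECs held 64.7, 110, 60.6 and 33.4 CPM in WT and 111, 55.4 and 45.2 CPM in KO. The LEC libraries overlapped both IntSC groups, and 4 of 5 KO IntSC libraries lay below all WT ones. The order from the lowest mean was KO IntSC, WT LEC, KO LEC and WT IntSC (66.3 ± 12.8, 67.1 ± 31.7, 70.4 ± 35.2 and 96.3 ± 19.7 CPM). No neighbouring pair that was tested passed, and the difference of LECs from IntSCs was -0.52 ± 0.32 in WT (adjusted p = 0.292) and 0.08 ± 0.36 in KO (adjusted p = 0.911).

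Efnb2 encodes ephrin-B2, the transmembrane ligand of EphB4. Its level in WT IntSCs ran from 5.83 to 23.0 CPM with a median of 12.8, and KO IntSCs held 4.06, 14.4, 16.2, 17.3 and 6.38 CPM. LECs held 15.3, 7.41, 30.9 and 52.5 CPM in WT and 10.2, 49.0 and 23.8 CPM in KO. The groups overlapped throughout, although the highest 4 libraries were all LECs. Means ran from KO IntSC through WT IntSC and WT LEC to KO LEC (11.7 ± 6.04, 14.2 ± 7.45, 26.5 ± 19.9 and 27.7 ± 19.7 CPM). LECs differed from IntSCs by 0.91 ± 0.65 in WT (adjusted p = 0.375) and by 1.24 ± 0.78 in KO (adjusted p = 0.296).

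Among the receptors, Epha2 encodes EphA2, which binds A-class ephrins such as ephrin-A1. It was near the limit of these libraries. No read was counted in 3 of 6 WT and 1 of 5 KO IntSC libraries, where the highest values were 4.57 and 6.01 CPM. LECs held 8.66, 1.11, 6.66 and 7.90 CPM in WT and 5.73, 0.723 and 21.7 CPM in KO. Some libraries of every group thus lay close to 0. Means ran from WT IntSC through KO IntSC and WT LEC to KO LEC (1.22 ± 1.83, 3.04 ± 2.20, 6.08 ± 3.42 and 9.40 ± 10.97 CPM), and neighbours of the same cell type or genotype did not differ by the test. The difference of LECs from IntSCs was 2.31 ± 1.59 in WT (adjusted p = 0.356) and 1.62 ± 1.46 in KO (adjusted p = 0.497).

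Ephb2 encodes EphB2, a receptor of B-class ephrins. WT IntSCs held 55.8 to 109 CPM with a median of 83.2, and KO IntSCs held 64.7, 51.8, 45.2, 57.0 and 49.7 CPM. The WT LEC libraries held 7.996, 0, 9.76 and 0 CPM. KO LECs held 0, 0 and 0.248 CPM, or 2 reads in all. No LEC library came near the lowest IntSC library, and 4 of the 7 LEC libraries had no Ephb2 read. The means ran from KO LEC through WT LEC and KO IntSC to WT IntSC (0.0828 ± 0.143, 4.44 ± 5.17, 53.7 ± 7.46 and 82.9 ± 19.9 CPM). The log2 fold change of LECs against IntSCs in WT was -4.19 ± 1.07 (adjusted p = 0.0114). With every gene that had a read kept in the fit, the adjusted p was 0.0652. In KO the pooled level of IntSCs (2004 reads) was 665 times that of LECs (2 reads), with an exact 95% counting interval of 184 to 5498, and the test gave an adjusted p of 1.13e-04.

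Ephb3 encodes EphB3, the close relative of EphB2. WT IntSCs held 166 to 279 CPM with a median of 188, and KO IntSCs held 253, 202, 146, 138 and 210 CPM. In LECs it was 15.7, 10.1, 1.03 and 0.10005 CPM in WT and 0.140, 0.103 and 5.71 CPM in KO. Every LEC library lay below every IntSC library, and the libraries of both LEC groups differed widely among themselves. The means ran from KO LEC through WT LEC and KO IntSC to WT IntSC (1.99 ± 3.23, 6.74 ± 7.50, 189.9 ± 48.0 and 212 ± 51.7 CPM). LECs were lower, with a log2 fold change of -4.97 ± 0.87 in WT (adjusted p = 8.44e-04) and of -6.58 ± 1.10 in KO (adjusted p = 0.00182), while neither genotype comparison passed.

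The stromal and epithelial markers of the same libraries are given beside these receptors. In WT LEC replicate 1, with the highest Ephb3 level among LECs, the 10 stromal markers summed to 2746 CPM, against 1192 to 1397 CPM in the other WT LEC libraries, 997 to 1157 CPM in KO LECs and 8012 to 16828 CPM in IntSCs. The list includes Vim and Pdpn, of which Pdpn is also a LEC marker, so not all of the sum is particular to stroma. Vim and Pdpn averaged 355 and 306 CPM in WT LECs and 483 and 180 CPM in KO LECs. In IntSCs they averaged 290 and 239 CPM in WT and 355 and 329 CPM in KO. Pdgfra, a marker of intestinal fibroblasts, stood at 17.1, 0.865, 5.72 and 23.3 CPM in WT LECs and at 0.31 to 0.559 CPM in KO LECs. The highest Pdgfra level among LECs (WT LEC replicate 4) fell in a library with no Ephb2 read. Pdgfrb stood at 69.2, 29.15, 13.0 and 1.70 CPM in WT LEC replicates 1 to 4, the same order as Ephb3. In KO LECs it stood at 20.8, 10.5 and 0.497 CPM, lowest in the library with the most Ephb3. Col1a1 stood at 182, 83.9, 26.7 and 35.5 CPM in WT LECs and at 2.80, 57.3 and 41.0 CPM in KO LECs. The part of stromal RNA in the LEC values was not tested. Without WT LEC replicate 1, the same 4 genes passed in WT.

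Epithelial RNA is of interest because epithelium also expresses both receptors. The 16 epithelial markers summed to 5.16 to 31.4 CPM in WT IntSC replicates 1 to 5, to 143 CPM in WT IntSC replicate 6 and to 119.7 to 264 CPM in KO IntSCs. In WT IntSC replicate 2, with the lowest of these sums, Ephb2 stood at 55.8 CPM and Ephb3 at 166 CPM, the lowest WT IntSC value of each. In WT IntSC replicate 6, with the highest WT sum, Ephb2 stood at 68.6 CPM and Ephb3 at 276 CPM. The highest WT Ephb2 level (109 CPM) was in replicate 3, with a sum of 12.5 CPM. The highest WT Ephb3 level (279 CPM) was in replicate 1, with a sum of 15.2 CPM. KO IntSCs held 45.2 to 64.7 CPM of Ephb2 and 138 to 253 CPM of Ephb3. Of the crypt markers, Olfm4 had no read in any library and Lgr5, a marker of intestinal stem cells, stayed at or below 2.09 CPM. The Paneth cell markers Lyz1 and Defa24, by contrast, averaged 0.213 and 1.19 CPM in WT IntSCs and 20.8 and 56.0 CPM in KO IntSCs, and in LECs Defa24 averaged 4.55 CPM in WT and 114 CPM in KO. The part of epithelial RNA in the levels of Ephb2 and Ephb3 was not tested.

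Ephb4 encodes EphB4, the receptor of ephrin-B2. WT IntSCs held 8.44 to 35.2 CPM with a median of 22.7, and KO IntSCs held 27.8, 50.0, 33.7, 29.4 and 10.6 CPM. LECs held 107, 166, 140 and 132 CPM in WT and 155, 74.3 and 125 CPM in KO. All 7 LEC libraries lay above all 11 IntSC libraries. Means ran from WT IntSC through KO IntSC and KO LEC to WT LEC (23.3 ± 10.3, 30.3 ± 14.1, 118 ± 40.7 and 136 ± 24.6 CPM), with no difference by the test between genotypes in either cell type. LECs were higher by 2.55 ± 0.36 in WT (adjusted p = 9.26e-05) and by 1.96 ± 0.45 in KO (adjusted p = 0.01). The 7 blood endothelial markers, for another vessel type that carries EphB4, summed to 1267 to 2795 CPM in WT IntSCs, 911 to 1430 CPM in KO IntSCs and 532 to 1013 CPM in LECs. Most of the IntSC sum came from Cd34 (means of 1708 CPM in WT and 825 CPM in KO). Without it the other 6 markers summed to 183 to 326 CPM in WT IntSCs, 198 to 569 CPM in KO IntSCs and 418 to 809 CPM in LECs. Most of that LEC sum was Emcn (means of 506 CPM in WT and 279 CPM in KO LECs, against 8.48 and 9.88 CPM in IntSCs). Nos3 also averaged higher in LECs, while Flt1, Plvap, Esm1 and Vwf averaged higher in IntSCs of the same genotype. The part of blood endothelial RNA in the Ephb4 level was not tested.

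**Figure D2:**
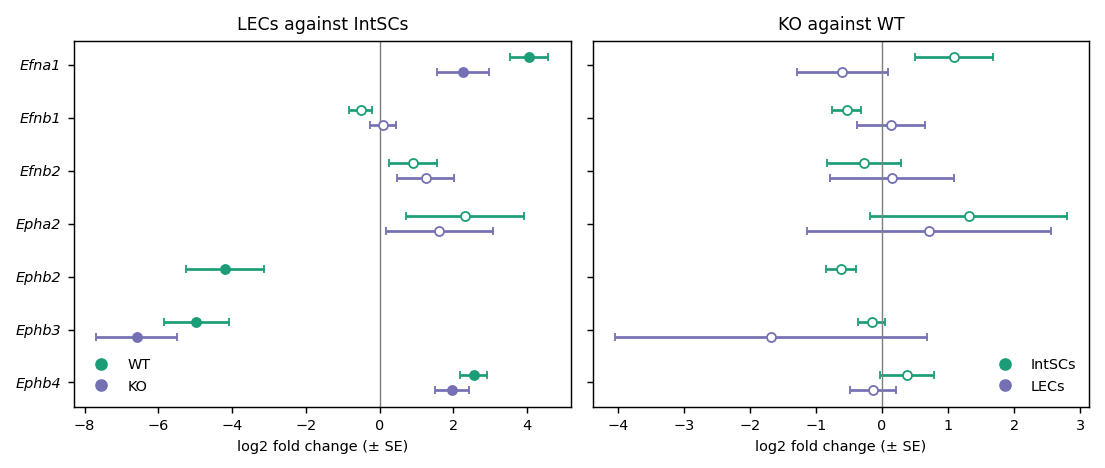
Fitted log2 fold changes (horizontal axes, with ± 1 SE) of the 7 genes, on the left for LECs against IntSCs in WT and KO and on the right for KO against WT in IntSCs and LECs. Filled circles passed at an adjusted p under 0.05: Efna1 and Ephb4 lie to the right and Ephb2 and Ephb3 to the left of 0 on the left side, and every circle on the right side is open. Ephb2 is not drawn for KO cell types, where LECs had 2 reads, nor for LEC genotypes, where it was not tested.

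The second comparison asked whether deleting Lats1 and Lats2 in the stroma was accompanied by a difference in these genes, in the stroma itself and in LECs. None of the 7 genes passed in IntSCs, where 1.47% of 12421 genes did, and none of the 6 tested passed in LECs, where 0.0658% of 10639 genes did. Ephb2 was left out of the LEC test by the filter on low counts. At an unadjusted p under 0.05, edgeR's quasi-likelihood test gave 2 of 7 in IntSCs and 0 of 6 in LECs, where the shares over all genes were 9.81% and 7.87%. DESeq2 called 0 of the members to which it gave an adjusted p, 6 in each cell type. Over all genes it called 376 of 12421 in IntSCs and 309 of 10639 in LECs.

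The genes under that unadjusted limit in IntSCs were Ephb2 and Efnb1. Ephb2 averaged 53.7 ± 7.46 CPM in KO and 82.9 ± 19.9 CPM in WT (log2 fold change -0.62 ± 0.23, unadjusted p = 0.0117, adjusted p = 0.252), and 3 of 5 KO libraries lay below all WT libraries. For Efnb1 the log2 fold change was -0.54 ± 0.21 (unadjusted p = 0.0211, adjusted p = 0.343). Leaving out any 1 library kept both values below 0, between -0.72 and -0.53 for Ephb2 and between -0.63 and -0.43 for Efnb1, with no adjusted p under 0.147. The stromal markers summed to 11208 to 16828 CPM in WT and 8012 to 12944 CPM in KO IntSCs, and their part in these values was not tested.

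Among the other members in IntSCs, the log2 fold change was 1.09 ± 0.59 for Efna1 (adjusted p = 0.6), 1.31 ± 1.49 for Epha2 (0.902) and 0.38 ± 0.41 for Ephb4 (0.896). Efnb2 and Ephb3 gave -0.28 ± 0.56 (0.956) and -0.16 ± 0.21 (0.921). Epha2 and Efnb2, the members with the word GGAATG on either strand of their promoter windows, did not pass, like all other members. Regulation by TEAD factors was not tested. The median log2 fold change of the 7 genes was -0.16, and that of all genes tested was 0.00260.

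In LECs the log2 fold change of KO against WT was -0.60 ± 0.68 for Efna1, 0.13 ± 0.52 for Efnb1, 0.15 ± 0.94 for Efnb2, 0.71 ± 1.85 for Epha2, -1.68 ± 2.36 for Ephb3 and -0.14 ± 0.35 for Ephb4, with an adjusted p of 1 for each. The standard error exceeded the size of the estimate for all 6 genes, so that differences of these sizes were not detectable here. The median was -0.00407, against -0.03 over all genes tested. When all 4 groups shared one estimate of the spread, Ephb2 entered the LEC test with a log2 fold change of -5.53 ± 1.48 (adjusted p = 0.042), from 188 reads in 2 of 4 WT libraries and 2 reads in 1 of 3 KO libraries. The other fits that tested it gave an adjusted p of 0.599 to 0.809.

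The third comparison asked whether the genotype effect differed between IntSCs and LECs, through the interaction of genotype and cell type. None of the 7 genes passed, against 1.70% of 14015 genes, and 1 of 7 had an unadjusted p under 0.05, as did 15.8% of all genes, so that the count of members was no higher than this background. That gene was Ephb2, for which the effect in IntSCs minus that in LECs was 4.90 ± 1.65 (unadjusted p = 0.00755, adjusted p = 0.137). DESeq2, which called 1054 of the 14015 genes, called Ephb2 (adjusted p = 0.028). So did edgeR's fits without WT LEC replicate 2 (0.0365) or 4 (0.0263), the WT libraries with no Ephb2 read. The Efna1 interaction was 1.78 ± 0.88 (adjusted p = 0.327), and the others lay between -0.61 for Efnb1 and 1.60 for Ephb3.

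The whole ephrin and Eph family was then set beside the 7 genes, as a list of 22 genes. Efna3, Epha6 and Epha8 had no read in any of the 18 libraries. In WT, 17 of the 22 were tested between cell types, of which 4 were higher in LECs (Efna1, Efnb3, Ephb1, Ephb4), 7 were lower (Efna2, Efna5, Epha5, Epha7, Ephb2, Ephb3, Ephb6) and 6 did not pass. In KO, 18 were tested, of which 3 were higher (Efna1, Ephb1, Ephb4), 6 were lower (Efna5, Epha1, Epha7, Ephb2, Ephb3, Ephb6) and 9 did not pass. DESeq2 called 12 of 17 in WT, adding Epha1, and 13 of 18 in KO, adding Efna2, Efnb3, Epha3 and Epha5. Over all genes it called 3271 of 12203 in WT and 4268 of 12758 in KO. The median log2 fold change of the tested family genes was -1.11 in WT and -2.59 in KO, against -0.04 and -0.21 over all genes. Genes such as Epha7 and Ephb6, with no read in LECs, entered these tests through IntSC reads alone, which fixed the sign of their values. The medians are therefore a description of the tested genes only.

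**Figure D3:**
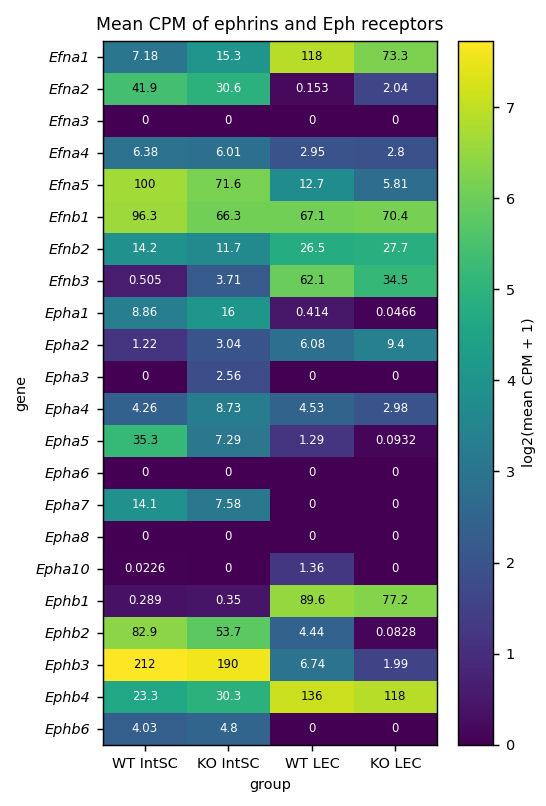
Mean level of the 22 ephrin and Eph genes (vertical axis) in the 4 groups (horizontal axis), coloured by log2(mean CPM + 1) with the mean CPM printed in each cell. Ephb2, Ephb3, Efna2 and Efna5 are bright in the IntSC columns, and Ephb4, Ephb1, Efna1 and Efnb3 are bright in the LEC columns.

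Of the B-class relatives, Ephb1 encodes another receptor of B ephrins and stood at 69.8, 89.3, 116 and 82.8 CPM in WT LECs and 41.5, 156 and 34.4 CPM in KO LECs. No IntSC library exceeded 0.949 CPM. LECs were higher by 8.08 ± 0.86 in WT (adjusted p = 5.17e-06) and 7.72 ± 1.16 in KO (adjusted p = 9.71e-04). The gene 9630041A04Rik overlaps Ephb1 near its 3′ end on the other strand.

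Efnb3 encodes the third transmembrane ephrin. It stood at 53.3, 76.2, 44.2 and 74.5 CPM in WT LECs, at 35.4, 15.3 and 52.9 CPM in KO LECs, and at most at 2.59 CPM in WT and 6.73 CPM in KO IntSCs. The difference by edgeR was 6.87 ± 1.04 in WT (adjusted p = 1.87e-04) and 3.21 ± 1.14 in KO (adjusted p = 0.0609). DESeq2 called both, and the interaction did not pass by edgeR (adjusted p = 0.247). Ephb6, which lacks kinase activity, had no read in any LEC library. Over 3 reads per group its IntSC level was at least 47.4-fold higher in WT and at least 40.5-fold higher in KO, and its calls were lost in 5 of 12 alternatives in WT, among them the removal of any 1 WT LEC library, and in 9 of 14 in KO.

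The A-class genes that passed were lower in LECs, Efna1 aside. Efna5, a lipid-anchored ligand, averaged 100.04 ± 38.0 CPM in WT and 71.6 ± 13.6 CPM in KO IntSCs, against 12.7 ± 13.9 and 5.81 ± 4.95 CPM in LECs (log2 fold changes -2.99 and -3.63, adjusted p = 0.0298 and 0.0186). The WT call was lost in 4 of 16 alternatives, among them the fit of every gene with a read and the removal of WT IntSC replicate 2 or WT LEC replicate 3. Efna2, another such ligand, averaged 41.9 ± 15.0 CPM in WT IntSCs and at most 0.3 CPM in a WT LEC library (log2 fold change -7.95, adjusted p = 4.09e-06). In KO LECs a single library, replicate 2, held 5.99 CPM. The KO difference did not pass by edgeR (-3.88, adjusted p = 0.07), while DESeq2 called it.

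Epha7 had no read in LECs, and its IntSC level was at least 183-fold higher in WT and at least 60.7-fold higher in KO. Epha1, which is overlapped by Zyx on the other strand, passed in KO with a pooled ratio of 388 between IntSCs and LECs (585 reads against 1, exact 95% interval 69.5 to 15371), and missed the threshold in WT (adjusted p = 0.0619). Epha5 passed in WT (log2 fold change -4.72 ± 1.37, adjusted p = 0.0224) and not in KO (adjusted p = 0.0672). These are edgeR's values, and DESeq2 called Epha1 in WT and Epha5 in KO. Efna4 and Epha4 averaged between 2.80 and 8.73 CPM in the 4 groups and passed no test.

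Between genotypes, 0 of 16 family genes passed in IntSCs, 0 of 11 in LECs and 0 of 18 in the interaction, while 1.47%, 0.0658% and 1.70% of all genes did. At an unadjusted p under 0.05 stood 3, 0 and 3 of them, against 9.81%, 7.87% and 15.8% of all genes. DESeq2 called Epha5 in IntSCs, no gene in LECs, and Efna2 and Ephb2 in the interaction. Over all genes it called 376 of 12421, 309 of 10639 and 1054 of 14015 in these comparisons. Epha3 was left out of the IntSC test by the filter on low counts. It had no read in WT IntSCs and 91 reads in 4 of 5 KO IntSC libraries, at most 7.31 CPM. Epha5, a receptor of A ephrins, stood at 23.1 to 55.7 CPM with a median of 31.4 in WT IntSCs and at 13.2, 0, 4.45, 10.1 and 8.64 CPM in KO IntSCs. All 5 KO libraries lay below all 6 WT libraries, with a log2 fold change of -2.27 ± 0.66 (adjusted p = 0.109 by edgeR).

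Adaptors, effectors and proteases of ephrin and Eph signalling formed a further list, of which 25 genes were in the tables. In WT, 22 were tested between cell types, 6 were higher in LECs (Sdcbp, Dab2, Vav3, Kalrn, Adam10, Rgs3), 3 were lower (Grip2, Ptpn13, Mmp2) and 13 did not pass, against 10.3% higher and 12.3% lower over all genes. In KO, 22 were tested, 7 were higher (Sdcbp, Dab2, Vav3, Fyn, Adam10, Adam17, Rgs3), 3 were lower (Grip2, Ptpn13, Mmp2) and 12 did not pass, against 9.11% higher and 16.8% lower. The median log2 fold change was 0.31 in WT and 0.38 in KO, where that of all genes was -0.04 and -0.21.

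Several of these proteins act on the members directly. Sdcbp (syntenin) and Grip2 are scaffolds with PDZ domains, a type that binds the tail of B ephrins, and they differed in opposite directions. Sdcbp averaged 499.9 ± 102 CPM in WT LECs and 206 ± 76.4 CPM in WT IntSCs (log2 fold change 1.29 ± 0.29, adjusted p = 0.00505), and Grip2 averaged 0.0707 ± 0.0899 against 15.5 ± 9.95 CPM (-7.43 ± 1.41, adjusted p = 0.00123). Adam10, a protease known to cut ephrins and Eph receptors, averaged 70.6 ± 8.495 CPM in WT LECs and 18.9 ± 5.36 CPM in WT IntSCs (1.90 ± 0.35, adjusted p = 0.00101). Mmp2, a matrix protease made by fibroblasts, averaged 30.0 ± 20.2 against 379 ± 70.0 CPM (-3.65 ± 0.46, adjusted p = 3.55e-05).

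Dab2, an adaptor of endocytosis, and Vav3, a guanine nucleotide exchange factor, were higher in WT LECs by 1.83 ± 0.29 and 5.78 ± 1.13. Rgs3, a regulator of G protein signalling with a form that binds B ephrins, was higher by 1.69 ± 0.43, and Kalrn, an exchange factor downstream of EphB receptors, by 1.91 ± 0.65. Of these, Kalrn lost its call in 9 of 16 alternatives and Rgs3 in 2 of 16. Ptpn13, a phosphatase that acts on B ephrins, had no read in LECs and averaged 17.996 ± 9.19 CPM in WT IntSCs. Fyn, a Src-family kinase, and Adam17, a protease of cell surface proteins, passed in KO (1.75 ± 0.33 and 0.9997 ± 0.31) and not in WT, Kalrn passed in WT and not in KO, and none of these 3 passed the interaction by edgeR. Adam17 lost its call in 6 of 14 alternatives.

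Between genotypes, Tiam1 alone among 22 of these genes passed in IntSCs, where 1.47% of all genes did. It encodes an exchange factor of Rac that binds ephrin-B1 and EphA2. WT IntSCs held 5.85 to 55.8 CPM with a median of 25.2, and KO IntSCs held 5.76, 3.15, 8.66, 4.93 and 6.65 CPM. It fell by 2.21 ± 0.53 on the log2 scale in KO (adjusted p = 0.0382), although the lowest WT library lay among the KO libraries. The call was lost in 12 of 17 alternatives, which included the removal of any 1 library other than WT IntSC replicate 2. In LECs 0 of 20 passed and in the interaction 0 of 24, with 1 and 2 at an unadjusted p under 0.05 (7.87% and 15.8% of all genes). DESeq2 called Tiam1 in IntSCs, no gene in LECs and Fyn in the interaction, where it called 376 of 12421, 309 of 10639 and 1054 of 14015 genes.

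For the 6 members whose mean reached 10 CPM in a group, the 3 genes with the most similar pattern over the 18 libraries were looked up among 14014 others by the Pearson correlation of log2(CPM + 1). The libraries fall into 2 cell types, and for genes that differ between them these values can follow that split. Efnb1 and Efnb2 did not pass the test between cell types. All of these values are a description only. Ephb2 was most like Trabd2b, Cacnb3 and Dkk3 (r = 0.99, 0.99 and 0.98), and Ephb3 was most like Nnmt, C1qtnf2 and S1pr2 (r = 0.98 for each). Ephb4 was most like Sh3tc1, Sema6a and Tie1 (r = 0.93 for each), of which Tie1 is an endothelial receptor kinase, and Efna1 was most like Gng12, S1pr1 and Vamp5 (r = 0.90 for each). The nearest genes to Efnb1 were Afg3l1, Rnf123 and Gmppb (r = 0.88, 0.84 and 0.84), and those nearest to Efnb2 were Fam134a, Txn2 and Ythdf1 (r = 0.88, 0.79 and 0.78).

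**Figure D4:**
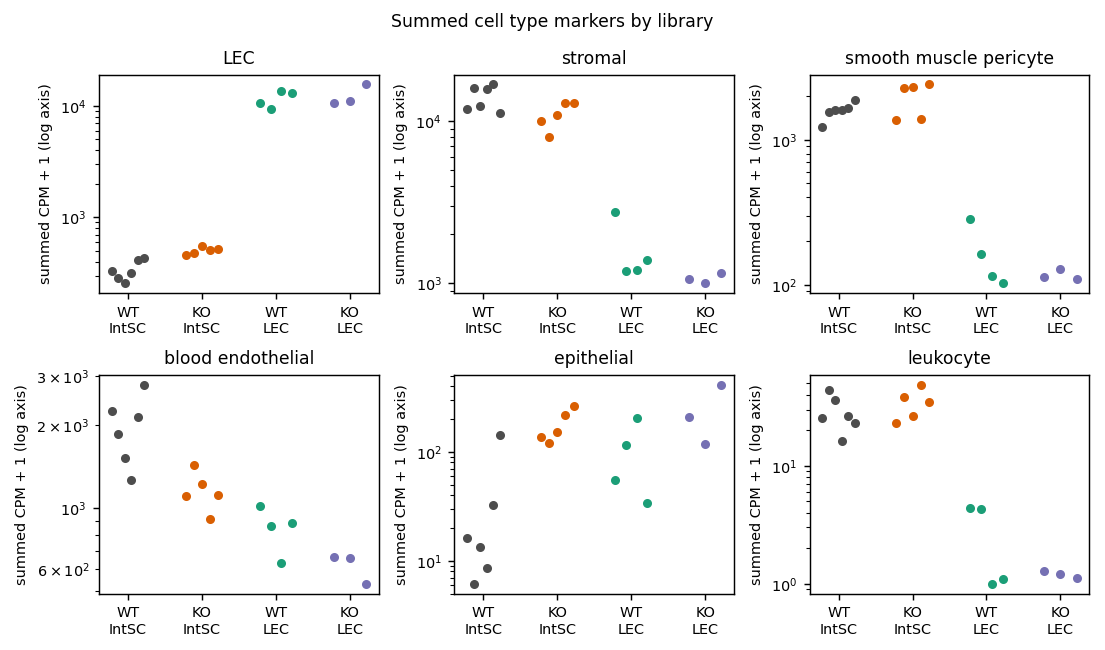
Summed markers of 6 cell types (vertical axes, CPM + 1 on a log axis) in the 4 groups (horizontal axes), with 1 point per library. LEC and stromal markers separate the cell types, the stromal sum of WT LEC replicate 1 (2746 CPM) stands above the other LEC libraries, and the epithelial sum of WT IntSC replicate 6 (143 CPM) stands above the other WT IntSC libraries.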

How the data were processed

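RNA of 18 sorted-cell libraries was measured by QuantSeq on an Illumina NextSeq instrument. Per the study's methods the authors mapped reads with TopHat and used Cufflinks, whereas the submitters' processing notes name Bowtie2, edgeR and mm10. The counting program, its strand setting and the annotation were not given in the sources used here. The authors deposited 1 table of raw read counts per gene symbol and library, not normalised (23282 rows, 23238 distinct symbols, of which 35 stood on more than 1 row and were summed).

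From these counts, edgeR 4.0.16 (R 4.3.3) was run with TMM scaling, its expression filter and the robust quasi-likelihood test on the 2 groups of each comparison, and on all 4 groups for the interaction. P-values were two-sided and adjusted by Benjamini-Hochberg over all genes tested, and a gene passed at an adjusted p under 0.05. Standard errors were taken from the fold change and its F statistic. DESeq2 1.42.0, RLE scaling, other filters (at least 1 read, or a mean count of at least 10), a replicate block, a shared fit of all 4 groups and leaving out each library were alternatives. The script was tested on simulated data. Depth was 5361250 to 10549233 reads. No 2 libraries of a group agreed within sampling noise.

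Genes were named by a rule: all 7 members; other family genes that reached a mean of 5 CPM in a group or passed a test; partner genes that passed a test; and the 3 most similar genes of each member that reached 10 CPM. Lats1, Lats2, Pdgfrb and cell type markers served as checks. The members and lists were chosen with earlier results of these data known. Coordinates and promoter sequences are from RefSeq (GRCm38.p6), which held all 7 genes. Protein sequences were not used here.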

Additional observations from a re-analysis of the deposited data

Results flagged for a closer look

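In 4 of 45 sets of 4 to 6 libraries of 1 group, the highest or lowest library stood apart from the others by Dixon's criterion, where chance gives about 2.25. The stromal marker sum of WT LEC replicate 1 was 2746 CPM, against 1192 to 1397 CPM in the other WT LECs. The epithelial marker sum of WT IntSC replicate 6 was 143 CPM, against 5.16 to 31.4 CPM in the other WT IntSCs. The glial marker sum of KO IntSC replicate 3 was 14.5 CPM, against 0.655 to 4.18 CPM in the other KO IntSCs. WT LEC replicate 2 had 7464241 counted reads, against 10374749 to 10549233 in the other WT LECs. None of these sets was a level of an ephrin or Eph gene. No member call between cell types in WT was lost when WT LEC replicate 1, WT LEC replicate 2 or WT IntSC replicate 6 was left out. Without KO IntSC replicate 3, Efna1 no longer passed between cell types in KO (2.19, adjusted p = 0.0811).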

How the results depend on the processing

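Of 567 member values recomputed over 34 results, 543 kept their direction and their side of the threshold, 10 lost the call, 3 gained it and 11 reversed, none of them called as reported. Between groups, deviations from the group means were hardly correlated in libraries with the same replicate number (0 pairs over 0.1 in any comparison). For WT cell types the 4 such pairs ran from 0.022 to 0.038, against a mean of -0.0055 for other numbers. Values this weak cannot tell whether the libraries were paired. With the replicate block, the KO cell type comparison called 2 of the members, with Efna1 (1.35, adjusted p = 0.486) and Ephb4 (1.66, adjusted p = 0.157) lost, and Ephb2 was lost in WT (-5.84, adjusted p = 0.0638). Of the other family and partner genes, the block ended 12 calls between KO cell types (Efna5, Epha1, Epha7, Ephb6, Grip2, Dab2, Vav3, Fyn, Ptpn13, Adam10, Adam17, Rgs3), 4 between WT cell types (Efna5, Ephb6, Kalrn, Rgs3) and that of Tiam1 in IntSCs. Under the block the counts over all genes were 1596 (WT cell types), 895 (KO cell types), 16 (interaction) and 3 (LEC genotype), and Efnb1 reversed to -0.15 (LEC genotype) and -0.0799 (KO cell types).

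DESeq2 called 376 genes (IntSC genotype), 309 (LEC genotype) and 1054 (interaction, 1 member), against 183, 7 and 238. One fit of all 4 groups called 27 (IntSC genotype) and 538 (LEC genotype, 1 member), and the LEC count was 32 with no filter and 20 at a mean count of at least 10. Leaving out 1 library gave 99 to 186 genes (IntSC genotype), 0 to 16 (LEC genotype), 2233 to 2889 (WT cell types), 2557 to 3320 (KO cell types) and 161 to 461 (interaction), and 0, 0, 4, 3 to 4 and 0 to 1 members. The IntSC count was 121 without WT IntSC 1 or KO IntSC 5 and 105, 101 and 99 without KO IntSC 1, 2 and 3. The LEC count was 1, 0 and 2 without WT LEC 2, 3 and 4 and 3, 16 and 4 without KO LEC 1, 2 and 3. The interaction count was 461 without KO LEC 2 and 379 without KO LEC 3. Reversals on leaving out 1 library came, for KO against WT in LECs, for Efnb1 (-0.10 without WT LEC 4, -0.33 without KO LEC 1; range -0.33 to 0.48), Efnb2 (-0.04 and -0.16 without WT LEC 1 and 2, -0.55 without KO LEC 2; range -0.55 to 0.70), Epha2 (KO LEC 3, range -0.85 to 1.26) and Ephb4 (KO LEC 2, range -0.36 to 0.11). They came for KO cell types for Efnb1 (KO LEC 1, range -0.40 to 0.32) and in the interaction for Efnb2 (KO LEC 2, range -0.91 to 0.36). The causes of these changes were not tested. At the depth of these libraries, Epha2 in IntSCs and in some LEC libraries, and Ephb2 and Ephb3 in LECs, rested on few reads. RLE scaling moved the median interaction of all genes from 0.24 to 0.13.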
